A study of Mus musculus with 12 samples.

Results

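The genes described are 40 mouse genes of the lysosome, among the 41388 genes of each count table. They are 11 proteases, 11 glycosidases, 3 sulfatases, 4 lipid hydrolases, 4 activators and sterol exporters, and 7 membrane proteins. They were chosen by symbol as textbook lysosomal genes and matched to the Ensembl identifiers of the tables. All 40 were found, and all 40 passed the filter on low counts in every comparison.

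Lysosomes are acidic organelles in which hydrolases break down proteins, glycans and lipids brought in by endocytosis, phagocytosis and autophagy. Most soluble lysosomal enzymes carry a mannose 6-phosphate tag that receptors read in the Golgi, while heavily glycosylated membrane proteins line the organelle and ion channels and transporters exchange its contents. All brain cells have lysosomes. Microglia, the phagocytes of the brain, are known for high levels of several cathepsins and of CD68. Loss of single members causes lysosomal storage diseases, many of which affect the brain.

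The study sequenced RNA of cells from the brains of 20-month-old mice on a C57BL\6 background. Every animal carried Bmal fl/fl alleles, and every animal received tamoxifen by oral gavage, 2 mg a day for 5 days, at 2 months. Animals labelled KO also carried ALDH1L1-CreERT2, an inducible Cre recombinase driven by a promoter active in astrocytes, and animals labelled WT were negative for Cre. Cells bound by ACSA-2 magnetic beads are called astrocytes here, and the cells that the beads left are called flowthrough. The 12 libraries came from 8 mice: 4 KO astrocyte libraries (mice 60, 62, 73 and 132), 4 WT astrocyte libraries (mice 56, 57, 64 and 78), 2 KO flowthrough libraries (mice 60 and 132) and 2 WT flowthrough libraries (mice 56 and 64). Mice 56, 60, 64 and 132 gave both fractions.

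Total counts lay between 38691406 and 51551942 per library. Arntl, the gene that encodes BMAL1, was not lower in libraries labelled KO. It stood at 9.50 to 13.3 CPM in KO astrocytes and at 5.38 to 8.80 CPM in WT astrocytes, and at 4.97 to 5.12 CPM in KO flowthrough against 4.29 to 5.28 CPM in WT flowthrough. The tables count all exons of the gene together and the labels do not name the floxed exons, so KO and WT mean the labels throughout. Levels in CPM are counts relative to the library total, scaled by the TMM method of edgeR. The fractions differed in markers of several cell types, not of astrocytes alone. The summed level of 20 astrocyte markers was 15750 to 32960 CPM in astrocyte libraries and 4899 to 12934 CPM in flowthrough. The sum of 20 microglia markers was 803 to 3751 CPM in astrocyte libraries and 14787 to 23573 CPM in flowthrough, and no marker of either list was at 0 in any library. The sum of 15 oligodendrocyte markers was 20674 to 38769 CPM in astrocyte libraries and 12613 to 30017 CPM in flowthrough. In the astrocyte libraries KO 62, KO 73 and WT 64 it was above the sum of the astrocyte markers. KO 73 and WT 78 are the female-type libraries by Xist, and their mice have no flowthrough library.

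Promoters of 12 members hold the same short motif, and stretches with it are shown because the same letters are read by the protein this study targeted and by the main lysosomal regulators. CACGTG is the E-box through which BMAL1 with CLOCK, and also TFEB and TFE3, bind DNA, and the TFEB-type site extends it to TCACGTGA. Promoters are windows of 250 bases before to 50 bases after a transcription start, from RefSeq on GRCm38.p6. There were 39 such windows for 36 members, and none for Ctsb, Npc1, Ctsh and Asah1. On either strand, CACGTG was present in 12 of the 39 windows (30.8%), against 7.15% of 32851 windows of the same length. The longer letters, which contain CACGTG and so overlap it, were in 10 windows (25.6%, against 3.77%) as TCACGTG and in 5 (12.8%, against 0.974%) as TCACGTGA. The members' windows also held more CpG pairs, a median of 12 against 7 in all windows, and the part of base composition in the motif shares was not tested. Lamp1 encodes an abundant glycoprotein of the lysosomal membrane, and its window holds 4 copies of CACGTG. In the lines that follow capitals mark CACGTG, each sequence reads 5′ to 3′ on the strand of the gene, and the stretches lie at chr8:13159069-13159160 (+) for Lamp1, chr7:142387889-142387956 (-) for Ctsd, chr2:164833730-164833772 (+) for one of 2 listed starts of Ctsa, chrX:134601193-134601255 (-) for Gla, chr8:3500443-3500510 (+) for Mcoln1, and chr7:126583321-126583388 (-) for one listed start of Cln3.
Lamp1: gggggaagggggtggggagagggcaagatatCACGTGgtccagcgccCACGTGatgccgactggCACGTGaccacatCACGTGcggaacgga
Ctsd: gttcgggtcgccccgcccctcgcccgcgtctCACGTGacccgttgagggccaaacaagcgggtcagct
Ctsa: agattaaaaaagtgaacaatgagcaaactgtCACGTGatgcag
Gla: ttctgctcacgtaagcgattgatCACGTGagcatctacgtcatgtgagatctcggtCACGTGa
Mcoln1: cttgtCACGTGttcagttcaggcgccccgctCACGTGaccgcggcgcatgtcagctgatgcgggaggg
Cln3: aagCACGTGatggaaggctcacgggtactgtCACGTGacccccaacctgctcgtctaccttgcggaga

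All of the last 5 genes carry TCACGTGA. Single CACGTG sites in Naglu, Glb1 and Gaa show the shorter form TCACGTG without the closing A, at chr11:101069990-101070056 (+), chr9:114400999-114401065 (+) and chr11:119267792-119267858 (+). The other members with CACGTG were Ctsl, Arsa and Ctsf. A match of letters is a description of the window, not evidence of binding.
Naglu: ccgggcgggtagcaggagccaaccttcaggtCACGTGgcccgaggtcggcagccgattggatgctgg
Glb1: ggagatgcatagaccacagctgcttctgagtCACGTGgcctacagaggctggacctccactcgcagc
Gaa: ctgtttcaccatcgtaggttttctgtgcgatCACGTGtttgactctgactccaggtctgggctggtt

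A second motif, GAGGAAGT, is the purine-rich core read by PU.1, a transcription factor of microglia and other myeloid cells. It was in 4 of 39 member windows (10.3%), against 3.20% of all windows, on either strand and without overlap with the E-box letters. The 4 genes were Ctss, Ctsc, Gusb and Gla. Those of Ctss (chr3:95526726-95526791, +) and Ctsc (chr7:88277904-88277971, +) are shown because both genes lie among the 5 largest fraction differences below. Gusb and Gla lie outside those 5, and the windows of Cd68, Grn and Man2b1, the rest of the 5, did not hold the motif. Capitals mark the motif, which Ctss and Ctsc carry in reverse complement, and the stretch of Ctss runs past its start by 6 bases.
Ctss: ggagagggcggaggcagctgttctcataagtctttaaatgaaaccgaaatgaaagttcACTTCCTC
Ctsc: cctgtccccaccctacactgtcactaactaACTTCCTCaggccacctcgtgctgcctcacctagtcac

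Most lysosomal genes were higher in the cells that the beads left than in captured astrocytes. Of the 40 members, 29 (72.5%) were higher in flowthrough at an adjusted p under 0.05 in edgeR, against 24.4% of the 20997 genes tested. Only Ctso (2.5% of members) was higher in astrocytes, against 24.8% of all genes. The other 10 did not pass in either direction. The members' median log2 difference, astrocytes minus flowthrough, was -0.94, beside 0.00 for all genes tested. In 27 members (67.5%) every flowthrough library was above every astrocyte library, as in 17% of all genes, and no member showed the reverse, which 12.2% of all genes did. These are bulk libraries, so fewer cells of a type and less RNA per cell cannot be told apart. The 29 members higher in flowthrough are called flowthrough-rich below, and the 10 that did not pass are called undivided.

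**Figure D1:**
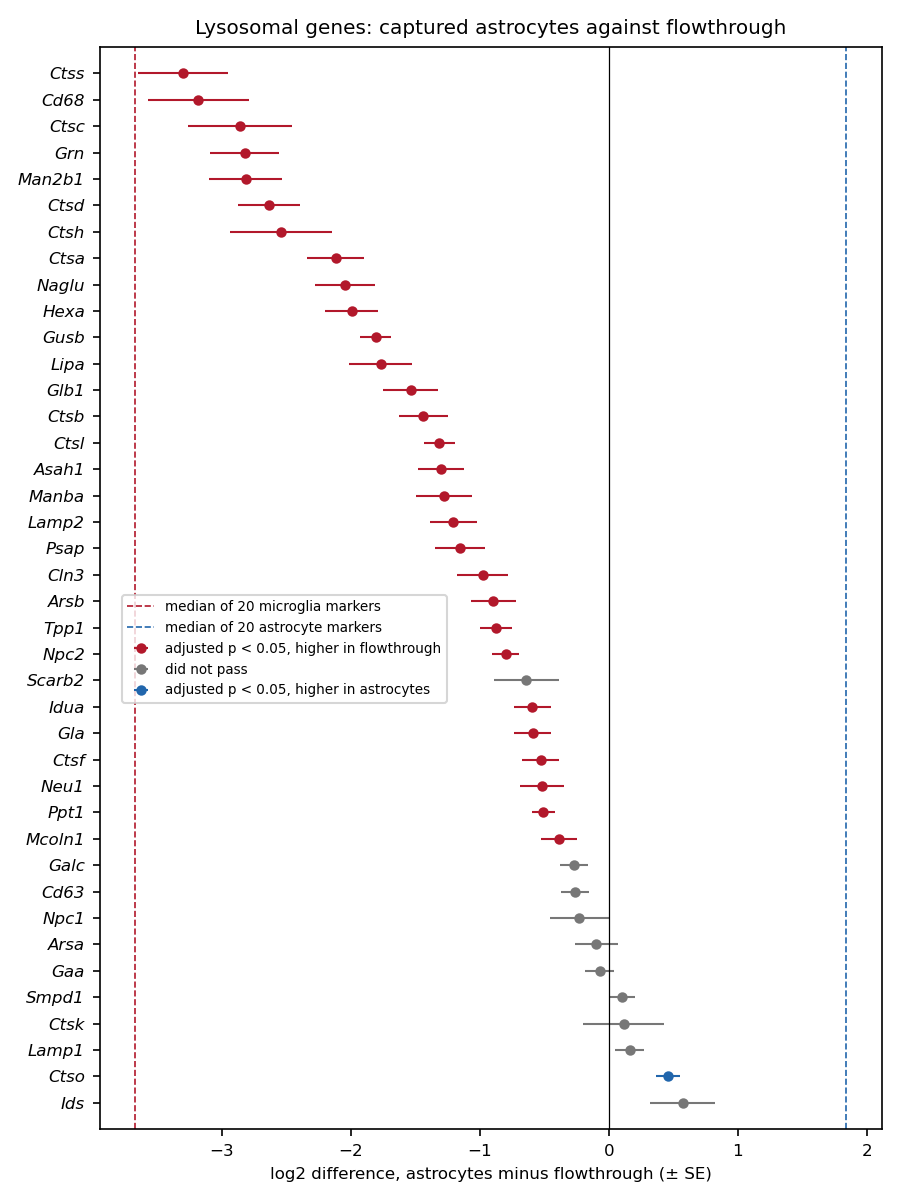
Each point is 1 lysosomal gene, placed by its log2 difference of astrocytes minus flowthrough (x axis) with its standard error, over 8 astrocyte and 4 flowthrough libraries. The red points (29 genes, higher in flowthrough) reach from -3.30 to -0.39, Ctso in blue is the 1 called gene to the right of 0, and the dashed lines mark the median of 20 microglia markers (-3.67) and of 20 astrocyte markers (1.84).

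The markers of several cell types moved with the same contrast. All 20 microglia markers were called lower in astrocytes, with log2 differences from -4.38 to -2.20 and a median of -3.67. So were all 6 choroid plexus markers (median -2.48), all 12 endothelial markers (-1.27), 9 of 10 lymphocyte markers (-4.99), 5 of 7 pericyte markers (-1.20) and 4 of 8 markers of border macrophages (-1.26). Markers of astrocytes (20 of 20, median 1.84), neurons (12 of 12, 1.61), oligodendrocytes (7 of 15, 1.03) and oligodendrocyte precursors (5 of 6, 0.90) were called higher in astrocyte libraries. Mitochondrial genes took 12.6% to 21.4% of counts in astrocyte libraries and 4.66% to 12.7% in flowthrough. The part of each cell type and of the mitochondrial share in the lysosomal differences was not tested. Of the 29 flowthrough-rich members, none reached the median of the microglia markers.

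Among the proteases, 9 of 11 were called higher in flowthrough and 1, Ctso, in astrocytes, with a median log2 difference of -1.44. Ctss (chr3:95526786-95556403), a cysteine protease that trims the invariant chain of MHC class II, differed most of all members. It stood at 199.5, 327, 947 and 386 CPM in KO astrocytes and at 366, 262, 400.3 and 203.5 CPM in WT astrocytes, in the order of mice given above. In flowthrough it was at 2882 and 4607 CPM in KO and at 3572 and 3874 CPM in WT. All flowthrough libraries were above all astrocyte libraries, and KO 73 was the highest astrocyte library. Ctss was 9.87-fold higher in flowthrough (log2 difference -3.30 ± 0.35 SE, adjusted p 3.74e-05).

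Ctsc (chr7:88278085-88310888), dipeptidyl peptidase I, which activates granule serine proteases, was at 27.5, 36.2, 146 and 47.1 CPM in KO astrocytes and at 50.7, 27.8, 56.0 and 23.0 CPM in WT astrocytes. Its flowthrough values were 308 and 432 CPM in KO and 370.2 and 349 CPM in WT. The groups of libraries did not overlap, and the level was 7.25-fold higher in flowthrough (-2.86 ± 0.40, adjusted p 2.06e-04). Ctsd, the main aspartic protease of the lysosome, was 6.21-fold higher (-2.63 ± 0.24) and Ctsh, an aminopeptidase, 5.82-fold higher (-2.54 ± 0.39). Ctsa, the protective protein that stabilises neuraminidase and beta-galactosidase, was 4.34-fold higher (-2.12 ± 0.22). Part of its exons (10.5%) and of those of Ctsb (16.2%) overlap the exons of Pltp and Fdft1 on the opposite strand, and whether the counting used strand is not given in the sources used here.

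Smaller differences of the same direction were found for the cysteine proteases Ctsb (2.71-fold, -1.44 ± 0.19) and Ctsl (2.49-fold, -1.32 ± 0.12). The tripeptidyl peptidase Tpp1, lost in a late infantile neuronal ceroid lipofuscinosis, followed at -0.87 ± 0.13, and the cysteine protease Ctsf at -0.53 ± 0.14. Ctsk, best known as the collagenase of osteoclasts, did not pass (0.11 ± 0.31, adjusted p 0.783) and was low in all libraries, at 2.66 to 11.7 CPM, with KO 73 the highest.

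Ctso (chr3:81932601-81956725), a less studied cysteine protease, was the exception. It was at 113, 117, 91.4 and 106 CPM in KO astrocytes, at 144, 134, 136 and 144 CPM in WT astrocytes, at 85.6 and 90.5 CPM in KO flowthrough and at 93.5 and 85.2 CPM in WT flowthrough. WT astrocytes were above all other libraries, while KO 73 lay within the flowthrough range. The level was 1.38-fold higher in astrocytes (0.46 ± 0.09, adjusted p 0.00193). The difference was 0.64 ± 0.13 within WT (adjusted p 0.00350) and 0.28 ± 0.13 within KO, where it was not called (adjusted p 0.146). The mean of both lay below the 0.60 of the astrocyte marker with the smallest difference.

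**Figure D2:**
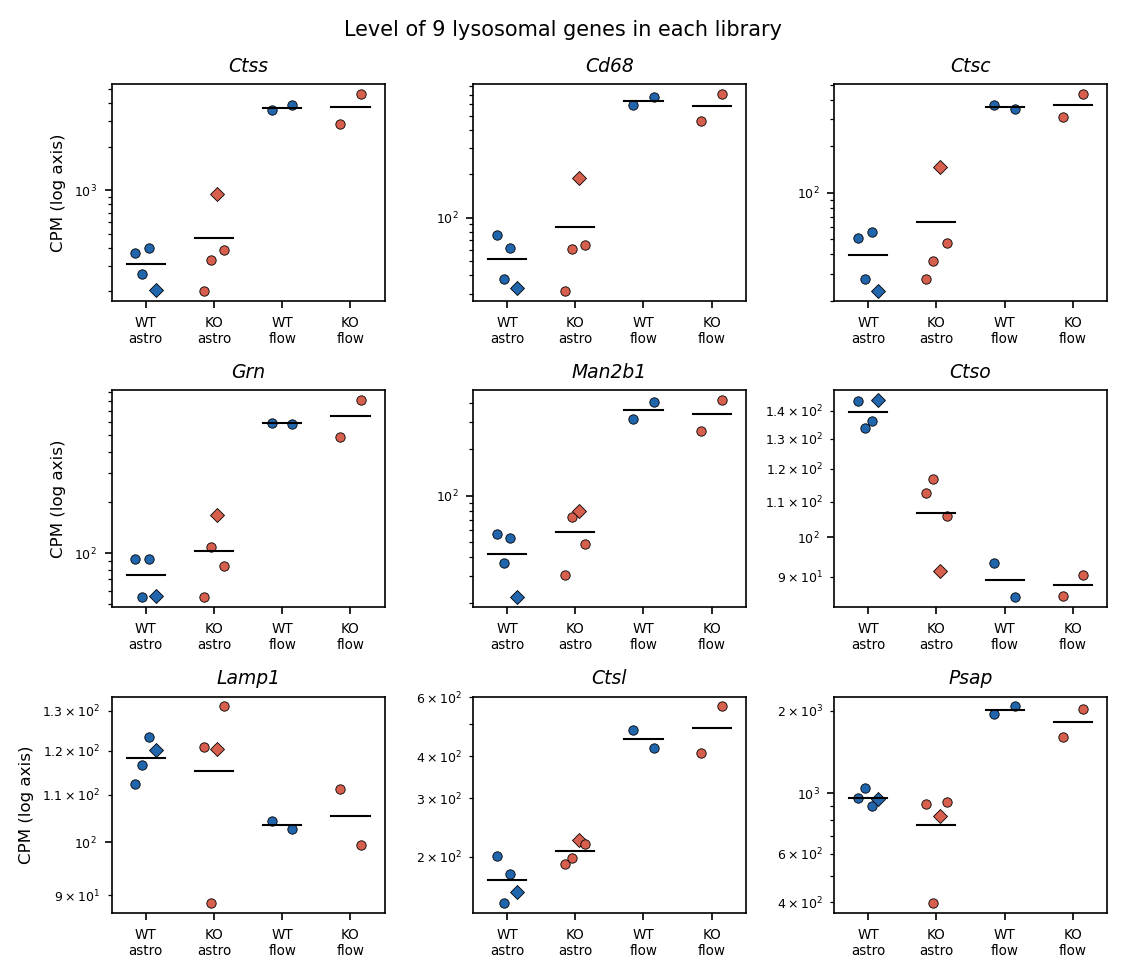
TMM-scaled CPM (log axes, which differ between panels) of 9 lysosomal genes in each of the 12 libraries, with a line at each group mean. Diamonds mark KO 73 and WT 78. Ctss, Cd68, Ctsc, Grn and Man2b1 separate flowthrough from astrocytes, with KO 73 the highest astrocyte library in each, while Ctso is highest in the 4 WT astrocyte libraries and Psap is lowest in KO 62 at 395 CPM.

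All 11 glycosidases had a negative log2 difference, and 9 of them were called, with a median of -1.28. Man2b1 (chr8:85083269-85098739), the alpha-mannosidase that trims N-glycans and whose loss causes alpha-mannosidosis, differed most. It was at 30.4, 73.0, 79.8 and 48.4 CPM in KO astrocytes and at 56.6, 36.5, 53.1 and 21.9 CPM in WT astrocytes. In flowthrough it was at 262 and 414 CPM in KO and at 311 and 402 CPM in WT. No astrocyte library came near the flowthrough range, and the level was 7.04-fold higher in flowthrough (-2.82 ± 0.29, adjusted p 3.17e-05).

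Naglu, which removes N-acetylglucosamine from heparan sulfate, was 4.13-fold higher in flowthrough at a low level, 2.75 to 7.19 CPM in astrocytes and 13.3 to 20.9 CPM in flowthrough. Hexa, the alpha subunit of the hexosaminidase that degrades ganglioside GM2, was 3.98-fold higher, and Gusb, the beta-glucuronidase, 3.50-fold higher. Gusb had the smallest adjusted p of all members (5.85e-06, log2 difference -1.81 ± 0.12). The beta-galactosidase Glb1, whose activity is used as a senescence marker, differed by -1.54 ± 0.21 and the beta-mannosidase Manba by -1.28 ± 0.22. Differences were below 2-fold for Idua, the alpha-iduronidase (-0.59 ± 0.14), Gla, the alpha-galactosidase lost in Fabry disease (-0.59 ± 0.14), and Neu1, the sialidase (-0.52 ± 0.17). Galc, which degrades the myelin lipid galactosylceramide (-0.27 ± 0.11, adjusted p 0.0590), and Gaa, which degrades glycogen (-0.07 ± 0.11, adjusted p 0.633), did not pass.

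Of the 3 sulfatases, 1 was called. Arsb, which acts on dermatan sulfate, was higher in flowthrough (-0.90 ± 0.17). Arsa, which acts on the myelin lipid sulfatide, was not called (-0.10 ± 0.17, adjusted p 0.662). Exons of both overlap genes on the opposite strand. For Arsb 48.8% of exon bases overlap Gm26527, which had a total count of 0. For Arsa 18.8% overlap C230037L18Rik, which had a total count of 787. Ids, the iduronate sulfatase lost in Hunter syndrome, had the largest positive difference of the 40 members without passing the test (0.57 ± 0.25, adjusted p 0.0820). Its level ranged from 30.6 to 72.6 CPM in astrocytes and from 23.9 to 44.4 CPM in flowthrough, so the fractions overlapped.

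Of the 4 lipid hydrolases, 3 were called higher in flowthrough. The acid lipase Lipa, which frees cholesterol from its esters, was 3.41-fold higher (-1.77 ± 0.24), the acid ceramidase Asah1 2.46-fold (-1.30 ± 0.18), and the palmitoyl-protein thioesterase Ppt1 1.42-fold (-0.51 ± 0.09). The sphingomyelinase Smpd1 was at 83.5 to 119 CPM in astrocytes and 77.3 to 102 CPM in flowthrough and did not pass (0.10 ± 0.10, adjusted p 0.439).

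Among activators and sterol exporters, 3 of 4 were called higher in flowthrough. Grn (chr11:102430315-102437048) encodes progranulin, a lysosomal glycoprotein lost in a form of frontotemporal dementia. It was at 54.7, 108, 169 and 83.5 CPM in KO astrocytes, at 91.8, 54.7, 93.0 and 55.8 CPM in WT astrocytes, at 491 and 807 CPM in KO flowthrough and at 596 and 586 CPM in WT flowthrough. The fractions did not overlap, and the level was 7.07-fold higher in flowthrough (-2.82 ± 0.27, adjusted p 2.29e-05). Psap, the precursor of the saposins that present lipids to hydrolases, was 2.22-fold higher in flowthrough (-1.15 ± 0.19). Of the pair that hands cholesterol out of the lysosome, the soluble Npc2 was 1.74-fold higher in flowthrough (-0.80 ± 0.10) and the membrane protein Npc1 did not pass (-0.23 ± 0.23, adjusted p 0.427). The difference between Npc2 and Npc1 was not tested.

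The 7 membrane proteins had 4 called members and a median of -0.64. Cd68 (chr11:69664213-69666153), a LAMP-family glycoprotein used as a marker of phagocytes, was at 31.0, 60.9, 188 and 65.1 CPM in KO astrocytes and at 75.3, 37.8, 61.9 and 32.7 CPM in WT astrocytes. Its flowthrough values were 462 and 704 CPM in KO and 596 and 669.7 CPM in WT. The fractions did not overlap, and it was 9.08-fold higher in flowthrough (-3.18 ± 0.39, adjusted p 9.33e-05). Lamp2, which takes part in chaperone-mediated autophagy, was 2.30-fold higher (-1.20 ± 0.18), and Cln3, lost in juvenile Batten disease, 1.97-fold (-0.98 ± 0.20). The calcium channel Mcoln1 was 1.31-fold higher (-0.39 ± 0.14, adjusted p 0.0356), the smallest called difference.

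The remaining membrane proteins were undivided. Lamp1 was at 88.6 to 131 CPM in astrocytes and 99.4 to 111 CPM in flowthrough (0.16 ± 0.11, adjusted p 0.247). The tetraspanin Cd63, found on late endosomes and exosomes, differed by -0.26 ± 0.11 (adjusted p 0.0594). Scarb2, the carrier of glucocerebrosidase to the lysosome, had a larger difference that missed the threshold (-0.64 ± 0.25, adjusted p 0.0545). Just inside the threshold stood Mcoln1 (0.0356) and Neu1 (0.0246), and just outside it Scarb2, Galc and Cd63.

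Calls near the threshold depended on single libraries. Without KO 73, Scarb2 (adjusted p 0.00195), Galc (0.0228), Npc1 (0.0384) and Cd63 (0.0411) were called higher in flowthrough, and Cd63 was also called without WT 56 (0.0259). Mcoln1 lost its call when any of 6 libraries was left out (adjusted p 0.0504 to 0.134). Neu1 lost it without KO flowthrough 132 (0.147) or WT flowthrough 64 (0.0854), and Ctsf without KO flowthrough 132 (0.0664). With the mouse as a block, over the 8 libraries of the 4 mice with both fractions, Scarb2 passed (-0.72, adjusted p 0.00114) and Mcoln1 did not (-0.35, adjusted p 0.0861).

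Per kilobase of exon, the order of the members differed between the fractions. In flowthrough the highest were Ctss (2749 ± 527 RPKM, SD over 4 libraries) and Ctsd (2677 ± 455 RPKM), whose levels did not differ beyond that spread, followed by Cd63 (776 ± 109 RPKM), Psap (697 ± 76.9 RPKM) and Ctsb (672 ± 99.6 RPKM), which also lay within each other's spread. In astrocytes the highest was Cd63 (643 ± 58.0 RPKM, SD over 8 libraries), followed by Ctsd (435 ± 159 RPKM), Psap (315 ± 72.5 RPKM), Ctss (285 ± 176 RPKM) and Ctsb (248 ± 63.3 RPKM). The lowest in flowthrough were Mcoln1 (2.95 ± 0.309 RPKM) and Gla (3.32 ± 0.482 RPKM).

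The 5 members listed here as microglial from textbooks, Ctss, Ctsc, Ctsh, Cd68 and Grn, were all called, with a median difference of -2.86. The list is short and does not mean that the other members are not microglial. Members outside it lay in the same range, such as Man2b1 (-2.82) and Ctsd (-2.63). In all, 9 members (22.5%) were at least 4-fold and 19 (47.5%) at least 2-fold higher in flowthrough. The share of all genes past these folds was not counted. An astrocyte-rich group could not be formed beyond Ctso, since no other member passed in that direction.

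The fraction difference was present under both labels. Within WT, 26 members were called higher in flowthrough and 1 in astrocytes, against 18.5% and 19.4% of all genes. Within KO, 25 were called higher in flowthrough and 0 in astrocytes, against 14.3% and 9% of all genes. Of the flowthrough-rich members, Ctsf, Idua, Neu1 and Mcoln1 were not called within WT and Gla, Neu1, Mcoln1 and Cln3 were not called within KO, while Cd63 was called within WT (-0.43, adjusted p 0.0430). The test of the difference between KO and WT (label by fraction interaction) called 0 of 40 members and 0 of all genes in edgeR, and 0 members had an unadjusted p under 0.05, against 3.94% of all genes. With the mouse as a block, over the 8 libraries of the 4 mice with both fractions, 9 members had a positive and 31 a negative interaction. All 12 libraries without the block gave 28 and 12. The blocked fit also leaves out the astrocyte libraries of the other mice. Without KO 73 and WT 78 and with no block, the signs were 11 and 29, so the turn also occurred without a block. With the block, 6 members had an unadjusted p under 0.05, against 7.73% of all genes, and 0 were called (smallest adjusted p 0.592).

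Summed over the 40 members, astrocyte libraries held 5686 (mouse 60), 6634 (62), 10091 (73) and 7048 CPM (132) in KO and 7965 (56), 6024 (57), 7117 (64) and 5874 CPM (78) in WT. Flowthrough held 19239 (60) and 27729 CPM (132) in KO and 24208 (56) and 24460 CPM (64) in WT. KO 73 was the highest of the KO astrocyte libraries for 27 of 40 members, and WT 56 the highest of the WT astrocyte libraries for 28. The share of all genes highest in these libraries was not counted, so these counts cannot be called particular to the members. The microglia marker sum was likewise highest in these libraries, at 3751 CPM in KO 73 (the lowest KO library held 815 CPM) and 1562 CPM in WT 56 (the lowest WT library held 803 CPM). This was not particular to microglia. Sums of border macrophage and lymphocyte markers were also highest in KO 73 (313 and 26.8 CPM) and WT 56 (112 and 9.49 CPM). The choroid plexus sum was highest in KO 73 and WT 64. The part of any cell type in the lysosomal sums was not tested. The sum of the 11 other members ranged from 1181 to 1426 CPM in astrocytes and from 1238 to 1550 CPM in flowthrough. These 11 were set apart by the fraction test on the same libraries, so the contrast between both sums follows from that split.

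**Figure D3:**
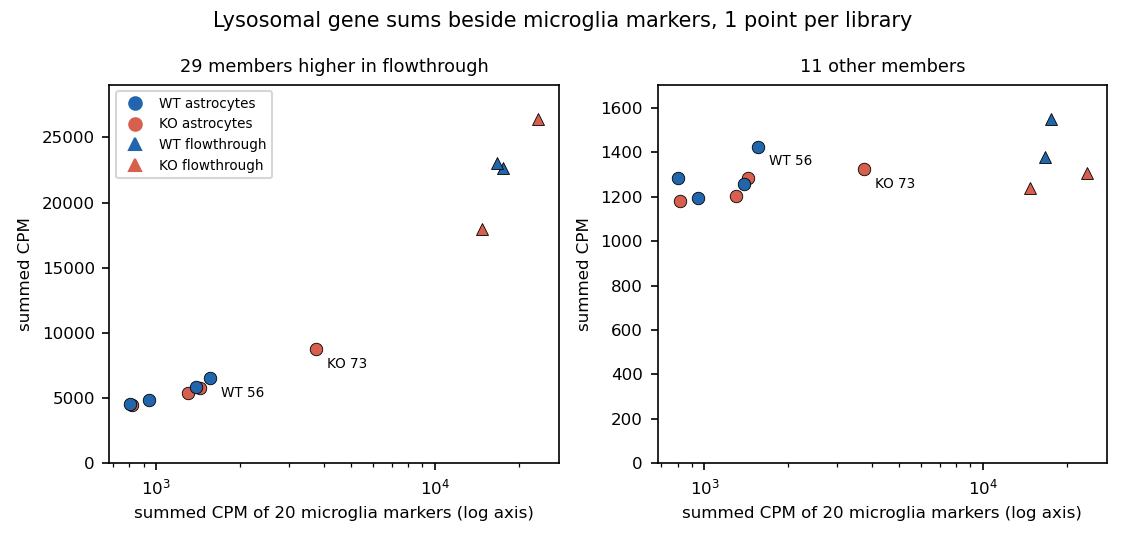
Summed CPM of the 29 flowthrough-rich members (left) and of the 11 other members (right) against the summed CPM of 20 microglia markers (log axis), 1 point per library. On the left the sum is highest in KO 73 among astrocyte libraries (8766 CPM at 3751 CPM of microglia markers) and at 18001 CPM or more in all flowthrough libraries, while on the right all 12 libraries lie between 1181 and 1550 CPM. The split into panels was made by the fraction test on these libraries.

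Astrocytes labelled KO and WT did not differ in any lysosomal gene at an adjusted p under 0.05. Of 40 members 0 were called, against 0.232% of the 18527 genes tested, and 1 had an unadjusted p under 0.05, against 5.37% of all genes. DESeq2 also called 0. By sign, 27 members were higher and 13 lower in KO, with a median log2 difference of 0.13 beside 0.00 for all genes. Only Ctso separated the labels without overlap (2.5% of members, against 4.03% of all genes). The median standard error over the members was 0.23. On simulated data for this comparison, with random genes and no shifted library, edgeR recovered 27% of genes changed by 1 on the log2 scale and 89% of those changed by 2.

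The 5 members with the smallest p are given as values that did not pass. Ctso had the per-library levels given above, with all 4 KO libraries (91.4 to 117 CPM) below all 4 WT libraries (134 to 144 CPM). Its log2 difference was -0.38 ± 0.11 (unadjusted p 0.00626, adjusted p 0.463). In flowthrough the KO minus WT difference of Ctso was -0.02, and the test of the difference between the fractions gave -0.37 ± 0.18 (unadjusted p 0.0709).

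Ctsl (chr13:64363214-64370306), a cysteine protease with broad specificity, was at 191, 198, 224 and 219 CPM in KO astrocytes and at 202, 145, 178 and 157 CPM in WT astrocytes. WT 56 overlapped the KO range, and the difference was 0.30 ± 0.13 (adjusted p 0.931). Ppt1 (chr4:122836242-122859175) was at 194, 212, 209 and 208 CPM in KO astrocytes and at 199, 178, 185 and 176 CPM in WT astrocytes, a difference of 0.17 ± 0.10 (adjusted p 0.976). WT 56 again lay within the KO range. Ctsf (chr19:4855129-4860912) was at 53.7, 66.7, 61.3 and 55.7 CPM in KO astrocytes and at 99.6, 61.0, 65.1 and 62.4 CPM in WT astrocytes, where WT 56 stood alone (-0.27 ± 0.17, adjusted p 0.987). Grn, whose levels are given above, differed by 0.50 ± 0.33 (adjusted p 0.989).

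The direction of the KO minus WT values depended on mouse 73. With all 8 astrocyte libraries, 22 of 29 flowthrough-rich members were higher in KO (median 0.17), while the 10 undivided members split into 5 and 5 (median 0.01). The 5 textbook microglial members were all higher in KO (median 0.62), as were all 20 microglia markers (median 0.59) and all 15 oligodendrocyte markers (median 0.76), and 17 of 20 astrocyte markers were lower (median -0.23). Markers of border macrophages, which are also phagocytes (8 of 8, median 0.75), lymphocytes (7 of 8 tested, 0.88), endothelial cells (11 of 12, 0.23), choroid plexus (6 of 6, 0.34) and oligodendrocyte precursors (6 of 6, 0.27) were higher in KO by sign. None of these markers was called. At an unadjusted edgeR p under 0.05, which 5.37% of all genes reached, 7 of 15 oligodendrocyte markers and 2 of 8 lymphocyte markers were higher. Of 20 astrocyte markers 5 were lower and 1 higher at that p, and 0 of 20 microglia markers reached it. KO 73 had the highest sum of border macrophage markers (313 CPM, against 35.4 to 112 CPM in the other astrocyte libraries) and the lowest of astrocyte markers (15750 CPM, against 23896 to 32960 CPM). Without KO 73, 16 members were higher and 24 lower (median -0.04). In that run the flowthrough-rich median was -0.03, the textbook microglial median -0.02 and that of the microglia markers -0.08. With the mean of the microglia markers as a covariate, 16 members were higher and the median was -0.03. Their mean log2 level (CPM plus 1) was 6.99 in KO 73 and 4.85 to 5.78 in the other astrocyte libraries. The covariate run and the run without KO 73 are therefore not separate checks, and no other marker list was used as a covariate. Ctso kept its sign in both runs, at -0.32 (adjusted p 0.418) without KO 73 and -0.34 (adjusted p 0.168) with the covariate. Sex and the markers both set KO 73 apart, so their parts cannot be told apart in that library.

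**Figure D4:**
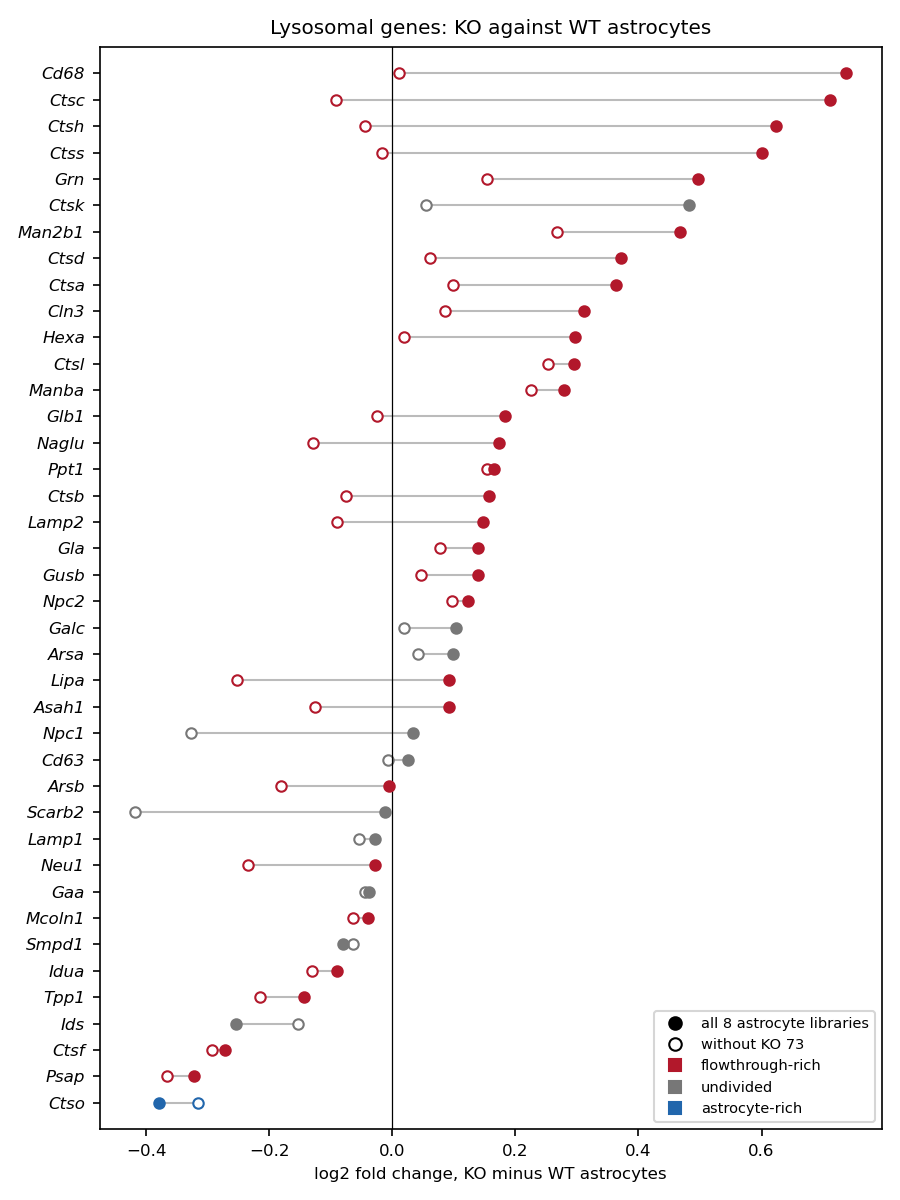
Log2 fold change of KO minus WT astrocytes (x axis) for each of 40 lysosomal genes, with all 8 libraries (filled) and without KO 73 (open), coloured by the fraction class of the gene. With all libraries Cd68, Ctsc, Ctsh and Ctss reach 0.60 to 0.74, and without KO 73 the members lie between -0.42 and 0.27.

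Members with and without CACGTG in a promoter window are set side by side, with no test. The 12 with the motif had a median KO minus WT difference of 0.16 in astrocytes (range -0.27 to 0.37) and 8 of them were higher. The 24 others with a window had a median of 0.11 (range -0.38 to 0.74) and 15 of them were higher. Without KO 73 the medians were 0.01 and -0.04. By fraction, 9 of 29 windows of flowthrough-rich members (31.0%) and 3 of 9 of undivided members (33.3%) held CACGTG. The 5 members with TCACGTGA were all flowthrough-rich, but so were 26 of all 36 members with a window.

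In flowthrough, KO and WT were compared with 2 libraries each. No member was called, against 0.00476% of 20997 genes, and 0 members had an unadjusted p under 0.05, against 4.63% of all genes. DESeq2 also called 0. The log2 differences lay between -0.34 (Gla) and 0.31 (Ids), with 17 members higher and 23 lower and a median of -0.02, beside 0.04 for all genes. Scaled by library size alone, 8 were higher and 32 lower. The direction depended on single libraries: without KO 132, 35 members were lower in KO, and without KO 60, 30 were higher. KO flowthrough 60 stood apart in markers, with 12934 CPM of astrocyte markers against 4899 to 6969 CPM in the other flowthrough libraries, and 14787 CPM of microglia markers against 16748 to 23573 CPM. By sign, 19 of 20 astrocyte markers (median 0.50), 12 of 12 neuron markers (0.83), 12 of 12 endothelial markers (0.51) and 14 of 20 microglia markers (0.13) were higher in KO flowthrough, and 6 of 6 choroid plexus markers were lower (-0.73). None of these markers was called, and their part in the lysosomal values was not tested. In 6 members (15%) the labels did not overlap, against 33.6% of all genes: Glb1, Gla, Cd63, Gaa and Smpd1 were lower in KO and Galc was higher. On simulated data for this comparison, with random genes and no shifted library, edgeR recovered 4% of genes changed by 1 and 57% of those changed by 2 on the log2 scale.

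Other genes of the lysosome were counted from lists of hydrolases, membrane proteins, proton pump subunits, sorting factors and regulators, of which 97 of 98 genes matched. Of all genes tested, 24.4% were called higher in flowthrough and 24.8% in astrocytes, as given above. Of the other hydrolases, 20 of 24 (83.3%) were called higher in flowthrough and 0 in astrocytes, with a median difference of -1.13. Ifi30, the thiol reductase of antigen processing, differed by -2.90 ± 0.24 and the carboxypeptidase Ctsz by -2.36 ± 0.21. Of 19 other membrane proteins and transporters, 8 (42.1%) were higher in flowthrough and 2 (10.5%) in astrocytes (median -0.26), with Laptm5, a protein of haematopoietic cells, at -3.72 ± 0.32 and the ascorbate-dependent reductase Cyb561a3 at -2.61 ± 0.24.

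Of 19 subunits of the V-ATPase, the proton pump that acidifies the lysosome, 6 (31.6%) were higher in flowthrough and 4 (21.1%) in astrocytes (median -0.08), near the shares of all genes. Atp6v0e2 (1.29 ± 0.19) and Atp6v1g2 (1.89 ± 0.31), the latter a subunit form of neurons, were among those higher in astrocyte libraries. Neuron markers were also higher there (1993 to 5859 CPM, against 644 to 2698 CPM). So were those of astrocytes, oligodendrocytes and oligodendrocyte precursors by median. The part of any cell type in these values was not tested. Among 17 sorting genes 7 (41.2%) were higher in flowthrough and 4 (23.5%) in astrocytes, the latter near the share of all genes. Igf2r, the large mannose 6-phosphate receptor, differed by -0.81 ± 0.12 and Nagpa, the enzyme that uncovers the mannose 6-phosphate tag, by -1.48 ± 0.22. Of 18 regulators around TFEB and mTORC1, 7 (38.9%) were higher in flowthrough and 4 (22.2%) in astrocytes, the latter again near that of all genes. The transcription factors Tfe3 (-1.28 ± 0.10) and Mitf (-1.58 ± 0.14), which read the same letters as TFEB, were higher in flowthrough. In KO against WT astrocytes, edgeR called 0 genes of each of these 5 lists.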

How the data were processed

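RNA of 12 libraries was amplified with a SMARTer kit, per the labels' protocols. The submitters' processing notes name the build GRCm38 and the tools STAR 2.5.1a, featureCounts 1.4.6-p5, Subread and bcl2fastq. Strand setting, multimapping reads and annotation release: not given in the sources used here. The deposited tables give, per the file headers, a raw count, a CPM and an RPKM value for each of 41388 genes. The deposited CPM equals the count over the library total, and the deposited RPKM is that CPM per kilobase of summed exon length. RPKM printed here was recomputed from TMM-scaled CPM.

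Symbols were found for 40254 identifiers. Tests on counts used edgeR 4.0.16 (R 4.3.3; two-sided quasi-likelihood test, TMM scaling, filterByExpr, Benjamini-Hochberg adjustment over all genes tested, threshold 0.05). Fractions, KO against WT flowthrough and the interaction used all 12 libraries in 4 group means (20997 genes, 8 residual degrees of freedom); the fraction value is the mean of the KO and WT differences. KO against WT astrocytes used 8 libraries (18527 genes, 6 residual degrees of freedom). Printed CPM values are on the scale of all 12 libraries. A count of 3, taken as the floor, is 0.0582 to 0.0775 CPM; it covers counting error only, and all members were above it. Each library is a separate mouse within its group, so the spread behind the p-values is between mice. Apart from the runs with a mouse block, the fraction and interaction tests treat both fractions of a mouse as independent.

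The mouse number in the labels pairs both fractions of 4 animals, so the pairing is by animal. Deviations from group means correlated at -0.0066 (132), 0.155 (56), 0.352 (60) and 0.251 (64).

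On simulated fraction data over 20953 genes, edgeR recovered 58% of genes changed by 1 and 92% of those changed by 2 on the log2 scale. In all simulations the changed genes were drawn at random above a mean of 1 CPM. Apart from the set changes, all groups had the same means, with no pairing and no shifted library. Recovery for the members may therefore differ. Alternatives were RLE or library size scaling, 2 other filters, DESeq2 1.42.0, limma-voom (limma 3.58.1), a threshold of 0.1, a mouse block, a microglia covariate, and libraries left out. The members and lists were chosen with earlier results of these data known. Values per library are given for members called by label, for the 5 largest called fraction differences in each direction, and for the 5 smallest p in KO against WT astrocytes; of the other lysosome lists, up to 2 genes with the smallest fraction p are named. Remarks on other single libraries were chosen after values were seen.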

Additional observations from a re-analysis of the deposited data

Results flagged for a closer look

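In each group of 4 astrocyte libraries, the gap between the extreme library and its nearest neighbour was set against the group's range. Gap and range were taken on the log2 scale of CPM, for 40 genes and 2 labels. In 3 of 80 groups the gap passed Dixon's critical value, and chance passes about 1 in 20 groups. Arsb, an arylsulfatase, was at 11.2 CPM in KO 73 and at 7.37 to 7.56 CPM in the other KO astrocyte libraries. Psap, the saposin precursor, was at 395 CPM in KO 62 and at 827 to 928 CPM in the others. Ctsf, a cathepsin, was at 99.6 CPM in WT 56 and at 61.0 to 65.1 CPM in the other WT astrocyte libraries. No member's KO minus WT difference was called different between the fractions.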

How the results depend on the processing

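In the fraction comparison, 27 to 33 members were higher in flowthrough under all settings run, and the median difference lay between -1.06 and -0.86. Single genes were followed in 15 of the alternatives only: RLE scaling, DESeq2, the mouse block and each library left out. Of 600 such single-gene values, 576 kept direction and call. Of the 29 flowthrough-rich members 26 kept the call in all 15 of these, and Mcoln1, Neu1 and Ctsf lost it in some. Under the other settings only counts and medians over the members were taken. Leaving out each library gave 1 to 2 members higher in astrocytes, the second being Ids without WT 56 (0.65, adjusted p 0.0287). The sign turned for Arsa without KO flowthrough 132 (-0.23 to 0.052 over libraries left out) and for Ctsk without WT flowthrough 64 (-0.044) or KO astrocytes 73 (-0.096 to 0.29). Library size scaling moved the median of all genes to -0.14. With the mouse as replicate block (8 libraries), 30 members were called, 29 of them higher in flowthrough: Mcoln1 was lost (-0.35, adjusted p 0.0861) and Scarb2 gained (-0.72, adjusted p 0.00114). No paired test of KO against WT exists, since mice carry 1 label. In the interaction the block, on these 8 libraries, called 0 members and gave 9 positive and 31 negative signs. Leaving out KO 73 and WT 78 without a block gave 11 positive and 29 negative, so the turn was not particular to the block.

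No setting called a member in either KO against WT comparison or in the interaction. The median of KO minus WT astrocytes turned negative without KO 73 and WT 78 (-0.14) and with the microglia covariate (-0.026), and ranged from -0.045 (without KO 73) to 0.21 with each library left out. Under the covariate Ctsc was at -0.0021, Ctsh at -0.026 and Ctss at -0.0066; with each library left out they ranged from -0.092 to 0.96, -0.045 to 0.92 and -0.018 to 0.85, each lowest without KO 73. The cause of these turns was not tested. The lowest member value, 2.66 CPM (Ctsk in WT 78), was above the floor of 3 counts.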
